A study of Mus musculus with 6 samples.

Results

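The tropomyosin genes of the mouse, *Tpm1*, *Tpm2*, *Tpm3*, and *Tpm4*, were followed in bulk RNA-Seq of the ductus arteriosus (DA), the fetal artery that joins the pulmonary artery to the aorta. The members were chosen by gene symbol, as the 4 rows of these names among the 23997 genes of the deposited table. The choice was made with the difference between the groups already known, so the differences of the 4 genes between the groups are given as a description, with no test. RNA of the DA at E17.5, from mice of the strain C57BL/6, was sequenced in 6 libraries. Of these, 3 libraries were from wild type (WT) littermates and 3 were from embryos labelled Prdm6 fl/fl SM22-Cre, which carry floxed *Prdm6* alleles and a Cre transgene that the study uses to remove them in smooth muscle cells (SMCs), and which are called mutant from here on. Libraries carry the numbers 0, 1, and 2 within a group, and values are given in that order. The labels give neither the Cre or floxed alleles of the WT littermates, nor whether a library is 1 embryo or a pool, so the spread between libraries may be in part technical. The values are FPKM, the number of fragments of a gene corrected for the length of its transcripts and for the size of the library, which allows levels to be compared between genes.

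Tropomyosins are coiled-coil proteins that lie end to end along the actin filament and decide which other proteins can bind it. In striated muscle they hold the troponin complex, which makes contraction depend on calcium. In smooth muscle, contraction is switched on through phosphorylation of myosin, and tropomyosin works there with caldesmon and calponin on the thin filament. *Tpm1* and *Tpm2* encode the long tropomyosins of muscle, of which the *Tpm1* product is the main one of the heart, whereas *Tpm3* and *Tpm4* supply mostly tropomyosins of the cytoskeleton in nonmuscle cells. Alternative promoters and alternative exons give most of these genes several products, so a value per gene can add up muscle and nonmuscle forms.

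The positions below are those of GENCODE vM21 on GRCm38, the assembly of mm10. *Tpm1* (ENSMUSG00000032366) lies on the minus strand of chromosome 9, from 67022590 to 67049406, and has 21 annotated transcripts, of which 16 are protein coding. *Tpm2* (ENSMUSG00000028464) lies on the minus strand of chromosome 4, from 43514711 to 43523765, and has 6 transcripts, of which 4 are protein coding. *Tpm3* (ENSMUSG00000027940) lies on the plus strand of chromosome 3, from 90072649 to 90100902, with 16 transcripts, 7 of them protein coding. *Tpm4* (ENSMUSG00000031799) lies on the plus strand of chromosome 8, from 72134975 to 72153142, with 2 transcripts, 1 of them protein coding. The long tropomyosins have 284 codons and the short ones of the cytoskeleton mostly 248. The long form was annotated in 7 coding transcripts of *Tpm1*, 3 of *Tpm2*, and 1 of *Tpm3*, and the 248-codon form in 3 of *Tpm1*, 0 of *Tpm2*, 2 of *Tpm3*, and the only coding transcript of *Tpm4*.

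The 4 genes are similar in their coding sequence, which matters for a count of short reads. The 60-base stretch in which the other coding sequences are most like that of *Tpm2* is given 5′ to 3′, with capitals at the bases that differ from *Tpm2*. It covers bases 406 to 465 of the coding sequence in the long forms of *Tpm2* and *Tpm3*, and bases 298 to 357 in the transcripts shown for *Tpm1* and *Tpm4*.
Tpm1: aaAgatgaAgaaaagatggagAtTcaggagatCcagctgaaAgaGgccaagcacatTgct
Tpm2: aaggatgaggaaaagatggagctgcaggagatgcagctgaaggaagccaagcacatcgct
Tpm3: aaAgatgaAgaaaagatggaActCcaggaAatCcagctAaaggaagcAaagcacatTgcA
Tpm4: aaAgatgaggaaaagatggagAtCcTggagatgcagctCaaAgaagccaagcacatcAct
Even here *Tpm1* differed from *Tpm2* at 8 bases, *Tpm3* at 10, and *Tpm4* at 7. Over the whole coding sequence of the long form, *Tpm1* and *Tpm2* shared at most 78.5% of their bases, *Tpm1* and *Tpm3* 80.4%, and *Tpm2* and *Tpm3* 78.3%. Windows of 45 bases, the shortest read length that the authors kept, were compared between the transcripts of all genes. No window was shared between any pair of the 4 tropomyosin genes, and *Tpm1* (0 of 6803 windows) and *Tpm2* (0 of 3067) shared none with any other gene. *Tpm3* shared 1507 of its 6251 windows (24.1%) with the retrogene *Tpm3-rs7*, and *Tpm4* shared 358 of 2159 (16.6%) with *Gm7809* or with *Gm26586*, which overlaps it on the other strand, as does *Gm16091*. Whether the counting used the strand is not given in the sources used here, so the levels of *Tpm3* and *Tpm4* are the less certain ones.

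The total depth of the libraries is unknown, as no read counts go with the FPKM values. Steps between low FPKM values put the relative depth of the libraries between 0.927 and 1.19 of that of WT library 1, and their upper quartile of FPKM ranged from 10.4 to 10.8. The depth estimates are rough, as each rested on 8 to 18 genes. WT library 2 listed 11886 genes at 0, against 8338 to 10313 in the other libraries. It also had the lowest correlation with each other library (0.674 to 0.726 on the log2 scale). Each library listed 34 to 61 of the 3506 genes of mean FPKM 20 or more at exactly 0, and such a 0 can be a failed estimate. No tropomyosin gene was listed at 0 in any library. The targeted gene, *Prdm6*, had an FPKM of 41.7, 48.4, and 19.8 in WT and of 48.6, 27.1, and 15.4 in the mutants, with a log2 fold change of -0.32 (SE 0.48). The groups overlapped, and because the sources used here do not give the floxed part, the value for the whole gene does not check the labels. By qRT-PCR, a measure other than these FPKM, the paper reports lower *Prdm6* in the DA and aorta of such mice. Mutant library 0 held transcripts of both *Xist* (FPKM 81.0) and the Y-linked *Ddx3y* (26.4), whereas each of the other 5 libraries held only one of them above an FPKM of 1, and the cause was not tested. Heart muscle transcripts also differed between libraries of the same group. The summed FPKM of 12 heart muscle markers was 61.2, 1394, and 510.7 in WT and 142.8, 130.3, and 1513 in the mutants. The values of the tropomyosins without these libraries are given beside the results.

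*Tpm1* was the most abundant tropomyosin gene in every library. Its FPKM was 920.9, 794.0, and 772.0 in WT and 505.6, 388.5, and 564.0 in the mutants. The groups did not overlap, and the lowest WT library was 1.37 times the highest mutant library. The mean was 829.0 ± 80.4 in WT and 486.0 ± 89.4 in the mutants (SD, n = 3), so that the mutant mean was 58.6% of the WT mean. On the log2(FPKM + 0.1) scale the difference was -0.78 (SE 0.21), against a median of 0.072 over the 12955 genes of mean FPKM 1 or more. With all 6 libraries averaged, *Tpm1* ranked 77th among all genes by level.

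*Tpm2* showed the largest difference of the 4 genes, measured as the ratio of the group means. Its FPKM was 289.9, 176.2, and 279.5 in the WT libraries and 57.6, 67.2, and 42.9 in the mutant libraries. All 3 WT libraries were therefore above all 3 mutant libraries, the closest pair of libraries being 2.62-fold apart. The mean was 248.5 ± 62.9 in WT and 55.9 ± 12.2 in the mutants (SD, n = 3). The mutant mean was thus 22.5% of the WT mean, a 4.45-fold difference, and the log2 fold change was -2.14 (SE 0.26). The spread between libraries of 1 group, as a coefficient of variation, was 25.3% in WT and 21.9% in the mutants, and WT library 1 was the low one of its group.

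*Tpm3*, a source of short cytoskeletal tropomyosins and of the long form of slow skeletal muscle fibres, had means in the groups that were closer to each other than those of *Tpm1* or *Tpm2*. Its FPKM was 159.5, 158.5, and 219.0 in WT and 153.5, 161.7, and 134.0 in the mutants. The groups overlapped, since mutant library 1 was above WT libraries 0 and 1, and the WT mean rested in part on its library 2. The means were 179.0 ± 34.6 and 149.7 ± 14.2 (SD, n = 3), and the log2 fold change was -0.25 (SE 0.19). Without WT library 2 it was -0.091.

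*Tpm4*, which in the mouse annotation encodes only the short cytoskeletal form, was the second most abundant of the 4 genes. Its FPKM was 455.4, 389.0, and 460.0 in WT and 415.9, 332.3, and 325.3 in the mutants. Mutant library 0 was above WT library 1, so these groups overlapped as well. The means were 434.8 ± 39.7 and 357.8 ± 50.4 (SD, n = 3), and the log2 fold change was -0.29 (SE 0.18). After quantile normalization of the libraries, the log2 fold changes of *Tpm3* and *Tpm4* were -0.061 and -0.11, with a median of 0.0083 over all genes, whereas those of *Tpm1* and *Tpm2* were -0.64 and -1.98.

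**Figure D1:**
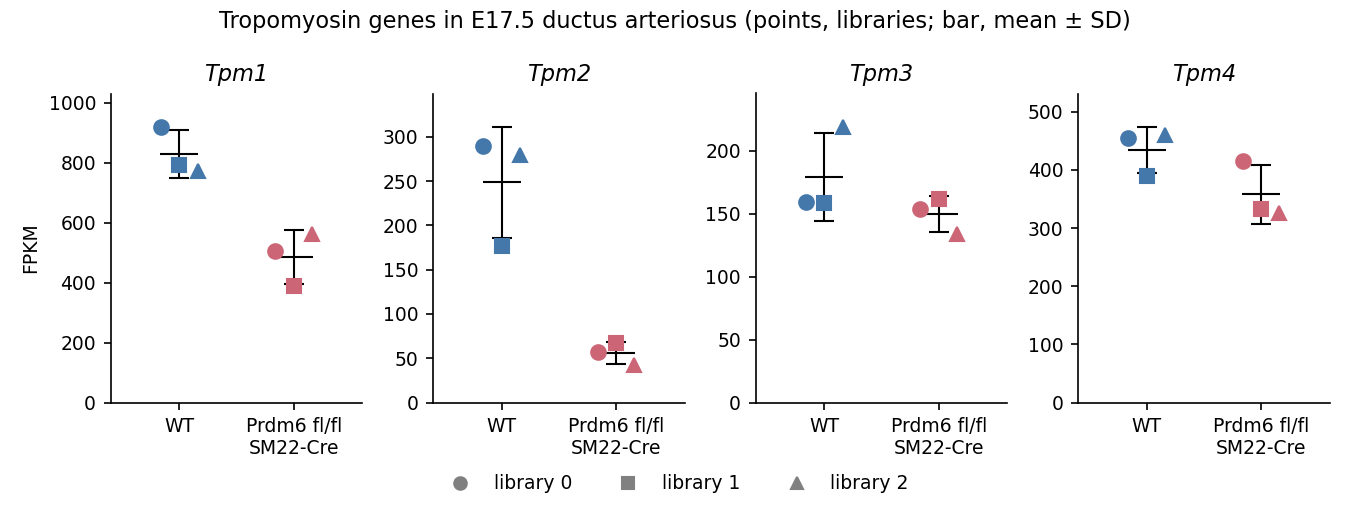
FPKM of *Tpm1*, *Tpm2*, *Tpm3*, and *Tpm4* (vertical axes, each from 0 and with its own range) in the WT and mutant libraries. Points are libraries and bars are the mean ± SD of 3 libraries; the groups stand apart for *Tpm1* and *Tpm2* and overlap for *Tpm3* and *Tpm4*.

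The log2 fold changes were also taken without the libraries of unusual content. Without mutant library 0, which held both *Xist* and Y-linked transcripts, the log2 fold changes of *Tpm1*, *Tpm2*, *Tpm3*, and *Tpm4* were -0.82, -2.17, -0.27, and -0.40. Without WT library 1 and mutant library 2, the libraries highest in heart muscle markers, they were -0.93, -2.19, -0.25, and -0.30. In both cases the order from the most to the least negative was *Tpm2*, *Tpm1*, *Tpm4*, and *Tpm3*, as with all 6 libraries. The order of *Tpm3* and *Tpm4* was not stable, since *Tpm3* was the more negative one without WT library 0 (-0.32 against -0.25) and without mutant library 1 (-0.30 against -0.24).

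The make-up of the tropomyosin transcripts was then expressed as shares, with the FPKM of the 4 genes summed in each library. The sum was 1825.8, 1517.7, and 1730.4 in WT and 1132.6, 949.7, and 1066.1 in the mutants. The groups did not overlap, and the mean of the mutants (1049.4 ± 92.6) was 62.0% of that of WT (1691.3 ± 157.7; SD, n = 3). Of the difference of 641.8 FPKM between the means, *Tpm1* made up 53.4%, *Tpm2* 30.0%, *Tpm4* 11.99%, and *Tpm3* 4.57%. *Tpm2* and, by less, *Tpm1* held a larger part of the difference than their mean shares in WT, 14.5% and 49.1%. Any gene that is lower by a larger factor than the sum must do so.

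*Tpm2* took 15.9%, 11.6%, and 16.1% of the summed FPKM in the WT libraries and 5.09%, 7.07%, and 4.02% in the mutant libraries. Its mean share was 14.5% ± 2.55 in WT and 5.39% ± 1.55 in the mutants (SD, n = 3), with no overlap and a difference of -9.15 percentage points. *Tpm4*, by contrast, took 24.9%, 25.6%, and 26.6% in WT and 36.7%, 35.0%, and 30.5% in the mutants. Each mutant share of *Tpm4* was above each WT share, although its FPKM overlapped, since these are shares of a sum that was lower in the mutants. The share of *Tpm1* was 49.1% ± 4.02 in WT and 46.2% ± 6.14 in the mutants, and that of *Tpm3* was 10.6% ± 1.96 and 14.4% ± 2.34 (SD, n = 3). The shares of both of these genes overlapped between the groups.

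**Figure D2:**
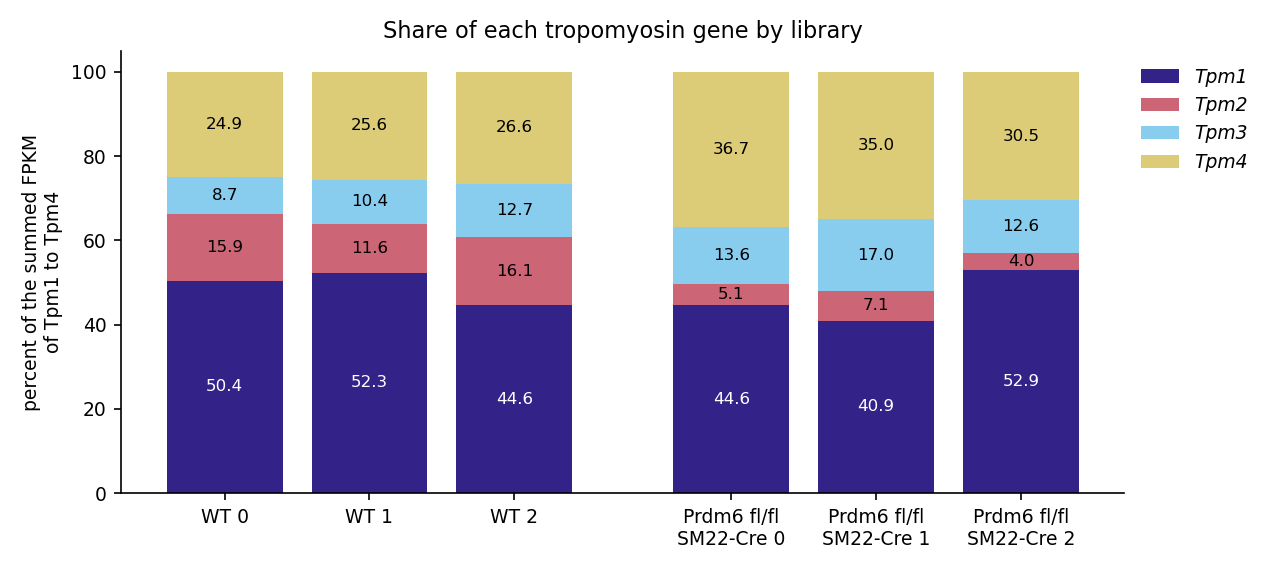
Share of each tropomyosin gene in the summed FPKM of the 4 genes (vertical axis, percent) in the 6 libraries (bars). The *Tpm2* segment is 11.6% or more in each WT library and 7.07% or less in each mutant library, and the *Tpm4* segment is larger in each mutant library than in any WT library.

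The order of the 4 genes by level differed between the groups in 1 place. In each of the 3 WT libraries it was *Tpm1*, *Tpm4*, *Tpm2*, *Tpm3* from high to low, and in each of the 3 mutant libraries it was *Tpm1*, *Tpm4*, *Tpm3*, *Tpm2*. Across the WT libraries the FPKM of *Tpm2* and *Tpm3* overlapped (176.2 to 289.9 against 158.5 to 219.0), so these neighbours in the order do not differ beyond their spread, although *Tpm2* was the higher one within each library. Across the mutant libraries they did not overlap (42.9 to 67.2 against 134.0 to 161.7). *Tpm1* and *Tpm4* were apart in WT (772.0 to 920.9 against 389.0 to 460.0), but their FPKM overlapped in the mutants (388.5 to 564.0 against 325.3 to 415.9).

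*Tpm2* parted from each of its paralogs within the libraries, where differences in depth or scaling cancel. The ratio of *Tpm2* to *Tpm3* was 1.82, 1.11, and 1.28 in WT and 0.375, 0.415, and 0.320 in the mutant libraries. The ratio of *Tpm2* to *Tpm4* was 0.566 ± 0.0987 in WT and 0.157 ± 0.0388 in the mutants (SD, n = 3), again with no overlap. The 2 genes that differed most in level between the groups also parted from each other. *Tpm1* was 3.18, 4.51, and 2.76 times *Tpm2* in WT and 8.78, 5.78, and 13.2 times *Tpm2* in the mutants.

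On the log2 scale, *Tpm2* minus the mean of its 3 paralogs was -0.49, -1.05, and -0.61 in the WT libraries and -2.46, -2.03, and -2.76 in the mutant libraries. The difference between the group means was -1.70, with group SDs of 0.30 and 0.36 (n = 3), and leaving out any single library gave values from -1.90 to -1.53. The other ratios were closer between the groups. *Tpm3* to *Tpm4* was 0.411 ± 0.0630 in WT and 0.422 ± 0.0594 in the mutants, and *Tpm1* to *Tpm4* was 1.91 ± 0.204 and 1.37 ± 0.314 (SD, n = 3), both with overlap.

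Against all genes, the position of the 4 members differed with the measure. In the limma fit of the 12955 genes, 1 gene (0.00772%) had an adjusted p under 0.05, which was no tropomyosin, and 8.28% had an unadjusted p under 0.05 in either direction. The called gene was *Rn45s*, the ribosomal RNA precursor, listed at 0 in the WT libraries and at 3060, 3806, and 4520 in the mutant libraries. The cause of this difference was not tested. A difference between the groups in library preparation or processing cannot be told apart here from one of genotype, for this or any other gene. Groups without overlap and lower in the mutants were found for 7.84% of all tested genes, and *Tpm1* and *Tpm2* were among them. By log2 fold change alone, 163 of the tested genes were below *Tpm2* and 1082 below *Tpm1*. Among the 543 genes whose mean FPKM reached 100, 7 were below *Tpm2*, 52 below *Tpm1*, 218 below *Tpm4*, and 230 below *Tpm3*. This mean is over all 6 libraries, and *Tpm2* reached 100 through WT alone (mean 248.5, against 55.9 in the mutants). Its rank is therefore a description only. Of the 7, 6 were genes of microRNAs or small nucleolar RNAs and 1 was *Clca2*, an accessory protein of chloride channels, at 324, 166, and 122 in WT and 44.8, 4.12, and 11.9 in the mutants.

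**Figure D3:**
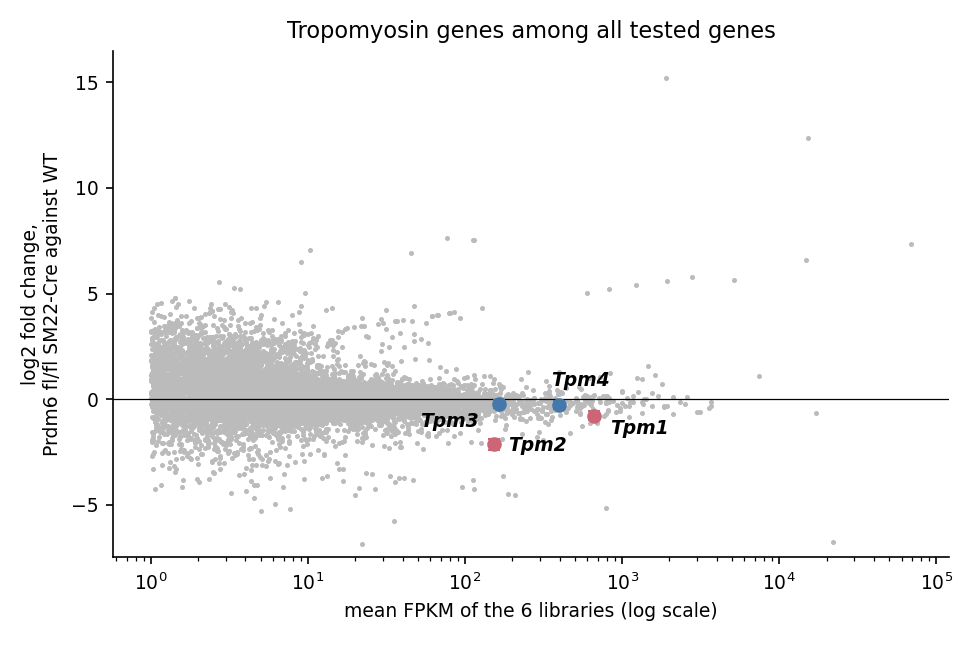
Log2 fold change of mutant against WT (vertical axis) by mean FPKM of the 6 libraries (horizontal axis, log scale) for the 12955 tested genes (grey points). The 4 tropomyosin genes are drawn larger with their SE, most of which lies within the symbol. *Tpm2* lies at -2.14, and *Tpm3* and *Tpm4* lie near 0.

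Because *Tpm1* and *Tpm2* were both lower, their promoters are shown, as the 250 bases before the RefSeq start of each gene (GRCm38.p6), read 5′ to 3′ on the strand of the gene. Capitals mark a CArG box, the site of serum response factor, with 1 mismatch, and the M-CAT motif, the site of TEAD factors.
Tpm1, chr9:67049214-67049463, minus strand: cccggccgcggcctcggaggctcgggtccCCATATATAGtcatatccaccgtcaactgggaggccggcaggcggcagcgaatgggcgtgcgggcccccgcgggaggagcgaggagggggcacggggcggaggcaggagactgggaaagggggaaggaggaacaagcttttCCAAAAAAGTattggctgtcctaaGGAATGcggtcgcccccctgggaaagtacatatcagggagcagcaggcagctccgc
Tpm2, chr4:43523555-43523804, minus strand: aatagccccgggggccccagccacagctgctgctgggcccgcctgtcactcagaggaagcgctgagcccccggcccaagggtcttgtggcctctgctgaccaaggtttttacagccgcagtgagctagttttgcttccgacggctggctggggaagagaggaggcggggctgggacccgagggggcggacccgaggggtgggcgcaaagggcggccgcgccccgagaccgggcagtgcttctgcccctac
The *Tpm1* window held CArG boxes with 1 mismatch that begin 221 and 80 bases before the start and an M-CAT motif that begins 56 bases before it, and these did not overlap. The *Tpm2* window held none of these. Both windows held an E box (CANNTG), which begins 198 bases before the start of *Tpm1* and 227 before that of *Tpm2*. Both also held GC boxes (GGGCGG), 1 that begins 127 bases before the start of *Tpm1* and 2 that begin 68 and 42 bases before that of *Tpm2*. No window of the 4 genes held a full CArG box or a TATA box (TATAAA). The letters were searched on both strands. Of the 32851 RefSeq windows of this length, 5736 held a CArG box with 1 mismatch, and 1.47% held a full CArG box, 12.6% the M-CAT motif (CATTCC), 66.2% an E box, 32.7% a GC box, and 12.4% a TATA box. *Tpm3* has 2 such windows, with 1 and 2 CArG boxes with 1 mismatch, and the *Tpm4* window held 5 GC boxes and no CArG box with 1 mismatch. A match says only that these letters are present. In GENCODE, *Tpm1* and *Tpm2* begin within these windows, at 67049406 and 43523765. *Tpm4* begins at 72134975, before its window. *Tpm3* begins at 90072649, at the end of its first window (90072401 to 90072650) and before its second (90079271 to 90079520). Parts of the *Tpm1* and *Tpm2* windows and the end of the first *Tpm3* window therefore lie inside the annotated genes. So do all of the second *Tpm3* window and all of the *Tpm4* window. The genes also have other starts, and a value per gene cannot separate products of different promoters or exons.

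The partners of tropomyosin on the filament were read from lists of genes, in the same fit of all genes. No gene of any list had an adjusted p under 0.05. Counts are therefore given for unadjusted p under 0.05, which 4.97% of all tested genes met with a lower and 3.31% with a higher level in the mutants, and for groups that did not overlap, 7.84% lower and 8.21% higher. These are called both counts from here on. Of the 6 actins, the filament itself, 1 was lower by unadjusted p, and 2 were lower without overlap. *Actg2*, the smooth muscle gamma-actin, was at 697.7, 349.2, and 288.5 in WT and 177.5, 157.2, and 95.9 in the mutants (log2 fold change -1.57, SE 0.37). *Acta2*, the smooth muscle alpha-actin, overlapped between the groups, with a log2 fold change of -0.85 (SE 0.48). The cytoplasmic actins were closer to 0, with -0.34 (SE 0.26) for *Actb* and -0.17 (SE 0.20) for *Actg1*. The summed FPKM of the 6 actins per summed FPKM of the 4 tropomyosins was 3.09 ± 0.563 in WT and 3.60 ± 0.455 in the mutants (SD, n = 3), with overlap.

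Among the 7 proteins that bind the thin filament beside tropomyosin (caldesmon, calponins, and transgelins), 3 were lower by unadjusted p and 4 were lower without overlap, and the median log2 fold change was -0.42. *Cnn1*, the calponin of smooth muscle, was at 275.6, 107.1, and 139.4 in WT and 64.1, 49.9, and 19.2 in the mutants, a log2 fold change of -2.02 (SE 0.50) close to that of *Tpm2*. *Cald1*, which encodes caldesmon, was at 252.1, 241.6, and 321.4 in WT and 241.1, 199.1, and 169.4 in the mutants (-0.42, SE 0.20), with mutant library 0 just under WT library 1. The list thus held genes near *Tpm2* and genes near *Tpm4* in the size of the difference. Of the 5 tested genes of tropomodulins and leiomodins, which cap or nucleate the filament at its pointed end with tropomyosin, 1 was lower by both counts and 0 were higher. It was *Lmod1*, the leiomodin of smooth muscle, at 65.7, 41.7, and 76.8 in WT and 24.1, 16.7, and 7.19 in the mutants (-2.05, SE 0.45). *Tmod3*, the tropomodulin found in most cells, had a log2 fold change of 0.13 (SE 0.27). *Lmod1* was the only gene of the 5 with a log2 fold change under 0. The list median, 0.41, was the value of *Lmod2* and is uncertain (SE 2.24). *Lmod2* was at 0.862, 9.86, and 0 in WT and 0, 1.35, and 15.6 in the mutants.

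Myosin II is the motor whose access to actin tropomyosin governs. All 8 tested subunit and kinase genes had a log2 fold change under 0, as had 44.4% of all tested genes, and 4 were lower both by unadjusted p and without overlap, with a list median of -0.66. *Myh11*, the heavy chain of smooth muscle, was at 748.6, 283.8, and 307.9 in WT and 147.6, 156.6, and 65.6 in the mutants (-1.81, SE 0.46). The others were *Myl12a* (-1.05, SE 0.19), *Myl12b* (-0.72, SE 0.18), and *Myh10* (-0.58, SE 0.20), which encode regulatory light chains and a nonmuscle heavy chain. *Myh9*, the other nonmuscle heavy chain, was at -0.19 (SE 0.21). Smooth muscle and nonmuscle subunits were thus both among the lower genes of this list.

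Cofilins and the Arp2/3 complex compete with tropomyosin for the filament. Of 12 genes, 1 was lower and 1 was higher by unadjusted p, while 0 were lower and 2 were higher without overlap, and the list median was -0.093. *Cfl1*, the cofilin of nonmuscle cells, had a log2 fold change of -0.51 (SE 0.21) with overlap, and *Arpc1a*, a subunit of the Arp2/3 complex, had 0.51 (SE 0.20) without. Troponins, the partners of tropomyosin in striated muscle, were also detected. Of 8, 1 was lower by both counts, *Tnnt3*, the troponin T of fast skeletal muscle, at 11.8, 6.58, and 7.87 in WT and 1.09, 0, and 1.01 in the mutants. The heart troponins varied within the groups. *Tnnt2*, for example, was at 13.6, 180.7, and 142.2 in WT and 16.4, 12.9, and 139.9 in the mutants.

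The contractile genes of smooth muscle share a transcriptional regulator. Of 4 genes of serum response factor and its cofactors, which drive these genes, 1 was lower by both counts. It was *Srf* itself, at 21.9, 18.6, and 23.9 in WT and 9.57, 13.5, and 10.3 in the mutants (-0.95, SE 0.24), and *Myocd*, its coactivator in smooth and heart muscle, overlapped (-0.71, SE 0.36). Of 11 splicing regulators, among them those known to act on tropomyosin exons, 2 were lower by unadjusted p, 3 were lower without overlap, and 0 were higher by either count, with a list median of -0.033. *Rbpms*, a splicing regulator of differentiated smooth muscle, was at 44.98, 58.3, and 42.7 in WT and 27.3, 25.9, and 25.2 in the mutants (-0.88, SE 0.19), and *Rbfox2* was at -0.52 (SE 0.17). *Ptbp1*, a repressor of muscle exons, overlapped between the groups (0.29, SE 0.32). Splicing itself cannot be read from values per gene.

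**Figure D4:**
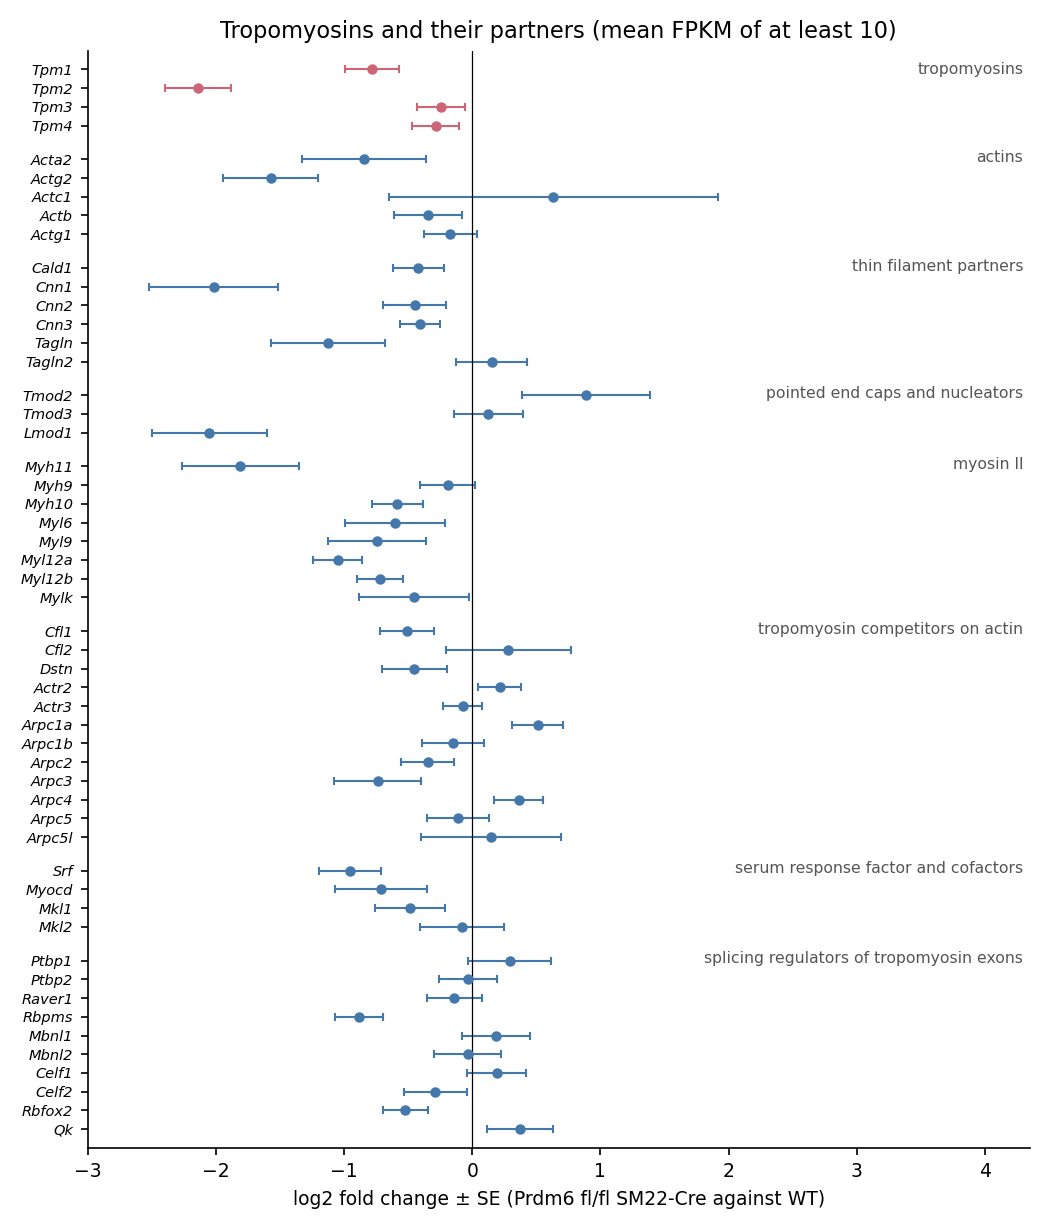
Log2 fold change ± SE of mutant against WT (horizontal axis) for the tropomyosins and for the partner genes of mean FPKM 10 or more, by list (the troponins, several of which are heart or skeletal muscle markers, are left out). *Tpm2*, *Actg2*, *Cnn1*, *Lmod1*, and *Myh11* lie between -2.14 and -1.57, whereas *Tpm3*, *Tpm4*, *Actb*, *Actg1*, and *Myh9* lie between -0.34 and -0.17. Other genes lie between these sets, among them *Tagln* (-1.13), *Myl12a* (-1.05), *Acta2* (-0.85), *Tpm1* (-0.78), and *Myh10* (-0.58). Some partner genes lie higher than both sets, such as *Tmod2* (0.89), *Actc1* (0.63), and *Arpc1a* (0.51).

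Cell type markers also differed in level between the groups. Of 8 smooth muscle markers, several of which are also in the lists of partners, 5 were lower by unadjusted p and 5 without overlap, with a median log2 fold change of -1.57. Their summed FPKM ranged from 2217 to 5064 in WT and from 816.3 to 2214 in the mutants, and none of the 8 was at 0 in any library. In bulk tissue, fewer SMCs and less RNA of a gene per SMC cannot be told apart. Against the mean log2 level of these 8 markers in the same library, *Tpm2* was at -0.017, 0.20, and 0.99 in WT and at -0.62, -0.22, and -0.12 in the mutants. The difference between the means was -0.71. The groups did not overlap, but WT library 0 (-0.017) and mutant library 2 (-0.12) were close. The marker *Des* was at 72.5, 59.3, and 19.3 in WT and 7.11, 10.8, and 42.8 in the mutants, highest among the mutants in library 2. Whether the groups stay apart with other markers was not tested. *Tpm1* differed by 0.65 on this measure, with overlap, and *Tpm3* and *Tpm4* by 1.19 and 1.14, without overlap. *Tpm2* was thus the one member that was lower in the mutants than the smooth muscle markers were on average, and the other 3 were less low than this average. Single markers ranged in log2 fold change from -2.05 (*Lmod1*) and -2.02 (*Cnn1*) to -0.44 (*Smtn*), against -2.14 for *Tpm2*, so some were near it. The part of the markers in these differences was not tested.

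*Tpm1* is also the tropomyosin of the heart, and in each group its share was highest in the library with most heart muscle transcripts. It was 52.3% in WT library 1, where the summed heart markers were at 1394, and 52.9% in mutant library 2, where they were at 1513. The other WT libraries did not follow the markers, since WT library 0, with a sum of 61.2, had 50.4% and WT library 2, with 510.7, had 44.6%. None of the 11 tested heart markers was called by either count in either direction, and *Nppa* was at 0 in 5 of the 6 libraries. Without the highest library of each group the log2 fold change of *Tpm1* was -0.93, and with all 6 libraries it was -0.78. The part of heart muscle in the *Tpm1* share was not tested. Of 8 tested skeletal muscle markers, 1, *Tnnt3*, was lower by both counts, and their summed FPKM was 38.0 to 71.1 in WT and 20.5 to 83.8 in the mutants.

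**Figure D5:**
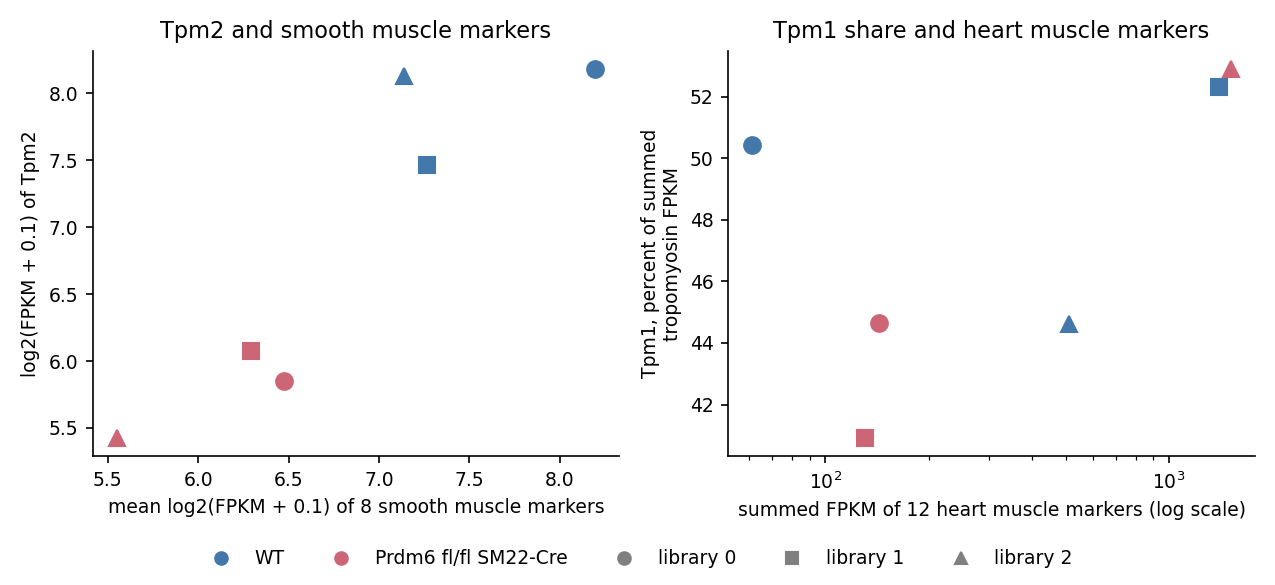
Left, log2(FPKM + 0.1) of *Tpm2* against the mean log2(FPKM + 0.1) of 8 smooth muscle markers. Right, share of *Tpm1* in the summed tropomyosin FPKM (percent) against the summed FPKM of 12 heart muscle markers (log scale). Each point is a library; the WT libraries are to the upper right on the left panel, and the highest *Tpm1* shares, 52.3% and 52.9%, are in the libraries with heart marker sums of 1394 and 1513.

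Counts for the other cell types were higher, lower, or near the background. Of 8 Schwann cell markers, 5 were higher by unadjusted p and 4 without overlap, and their summed FPKM was 12.7 to 35.2 in WT and 46.1 to 170.3 in the mutants. Of 8 endothelial markers, 1 was higher by unadjusted p and 2 without overlap (summed FPKM 346.6 to 472.3 and 416.5 to 670.4). Of 6 tested erythroid markers, 2 were higher by unadjusted p and 0 without overlap (3864 to 7581 and 4284 to 24360), and *Hba-a2* was at 0 in every library. Of 8 fibroblast markers, 1 was lower and 1 was higher by unadjusted p, with 1 higher without overlap (4223 to 7502 and 3391 to 6900), and of 7 macrophage markers none was called by either count (33.1 to 134.8 and 27.8 to 98.4). Their part in the tropomyosin levels was not tested.

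The 4 genes differed in which other genes followed them across the libraries. Pearson correlations of log2(FPKM + 0.1) over the 6 libraries were taken with 3429 genes of mean FPKM 20 or more and above 0 in every library. They are a description, since the points share their libraries and the difference between the groups. The genes named as most like a member are the highest of 3429 values, each over only 6 points. Between members the correlation was 0.835 for *Tpm1* and *Tpm2*, 0.800 for *Tpm2* and *Tpm4*, 0.711 for *Tpm1* and *Tpm4*, 0.689 for *Tpm2* and *Tpm3*, 0.645 for *Tpm3* and *Tpm4*, and 0.319 for *Tpm1* and *Tpm3*. Within the groups the order was another one. Of 6 pairs of libraries of the same group, *Tpm1* and *Tpm2* differed in the same direction in 2. In the order above, the other pairs of genes did so in 4, 2, 5, 5, and 1. No member was near the top of another's list, *Tpm2* being 141st for *Tpm1* and *Tpm1* 282nd for *Tpm2*. The genes most like *Tpm1* were *Mrps21* (0.989), *Btf3* (0.969), and *Atp5f1* (0.967), which encode a mitochondrial ribosomal protein, a basal transcription factor, and a subunit of ATP synthase. Those most like *Tpm2* were *Rps3a1* (0.996), a ribosomal protein, *Sulf2* (0.994), a heparan sulfate sulfatase, and *Cenpb* (0.990), a centromere protein, followed by *Kcnj8* (0.990), a potassium channel subunit of smooth muscle and pericytes. *Kcnj8* was at 32.8, 29.0, and 31.8 in WT and 15.6, 15.2, and 13.2 in the mutants. Those most like *Tpm3* were *Pes1* (0.996), *Gnai2* (0.993), and *Ltbr* (0.990), a ribosome assembly factor, a G protein subunit, and a receptor of the tumor necrosis factor family. The gene most like *Tpm4* was *Cfl1* (0.991), the cofilin that competes with tropomyosin for actin, at 519.7, 432.6, and 567.1 in WT and 447.6, 321.4, and 307.7 in the mutants.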

How the data were processed

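The authors trimmed the reads of the 6 libraries (minimum length 45) and used TopHat2 for alignment to mm10 and Cufflinks and Cuffdiff for the deposited FPKM, 1 value per gene and library. Tool versions, the annotation, and any scaling between libraries are not given in the sources used here, and aligned reads, from which exons could be counted, were not analysed here. From the deposited FPKM, log2(FPKM + 0.1) was fitted for the 12955 genes of mean FPKM 1 or more with limma 3.58.1 in R 4.3.3 (lmFit, eBayes with trend, two-sided, Benjamini-Hochberg adjustment, threshold 0.05). The fit was run on simulated data with normal noise, where it had to return the size and sign of set changes. This does not test how it calls genes in these libraries. Shares, ratios, and correlations were computed with pandas 2.3.3 and numpy 2.4.6 in Python 3.11.15. Groups and numbers came from the sample titles, with 0 unmatched columns. The members, gene lists, and rules for named genes (the members, genes of the fixed lists, and the genes most like each member) were chosen with earlier results of these data known. Alternatives changed the pseudocount, filter, scaling, variance model, replicate block, and libraries.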

Additional observations from a re-analysis of the deposited data

How the results depend on the processing

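The log2 fold changes of *Tpm1*, *Tpm2*, *Tpm3*, and *Tpm4* were negative under all 11 alternatives tried. They ranged over -0.93 to -0.63, -2.37 to -1.96, -0.32 to -0.061, and -0.40 to -0.11, and the value of *Tpm4* moved by more than 1 SD between libraries in 1 case, to -0.11 after quantile normalization. When 1 library was left out at a time, the ranges were -0.90 to -0.63, -2.37 to -1.96, -0.32 to -0.091, and -0.40 to -0.22. The difference in log2 *Tpm2* against the mean of its paralogs was -1.36 when *Tpm1* alone was the reference, instead of -1.70, and -1.90 to -1.53 with 1 library left out. The difference in the *Tpm2* share was -10.6 to -8.35 percentage points with 1 library left out.

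The number of genes with an adjusted p under 0.05 in limma was 1 as reported, 2 without the mean-variance trend, and 3 without the 2 libraries highest in heart muscle markers, an alternative chosen after seeing the data. It was 1 to 3 with 1 library left out, reaching 3 without WT library 1, without Prdm6 fl/fl SM22-Cre library 0, and without Prdm6 fl/fl SM22-Cre library 2. With the replicate number as a block it was 1, and the log2 fold changes were the same (-0.78, -2.14, -0.25, and -0.29). Libraries of the same number correlated at 0.122, -0.076, and -0.0088 in their deviations from the group means, so they were not treated as pairs. FPKM without read counts gives no counting error, and values per gene cannot show which promoter or exon of a tropomyosin gene was used.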
